A study of Mus musculus with 9 samples.

Results

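A set of 10 genes used to tell subtypes of retinal ganglion cells (RGCs) apart, *Foxp1*, *Foxp2*, *Jam2*, *Fstl4*, *Htr2c*, *Pde1a*, *Trhr*, *Neurod2*, *Prdm16* and *Cntnap4*, was followed through RNA-Seq of whole mouse retinas. They were selected by symbol from a list of subtype genes in the study, and all 10 were found among the 25239 gene names of every library. The study compared a knock-in mouse line with its wild-type littermates, and the question put to these genes was whether their RNA differed between the genotypes. Each of 9 libraries came from the pair of retinas of 1 C57BL/6J mouse at P42, with 3 mice for each of the genotypes +/+ (wild type), *Rbpms*-CreERT2/+ (Cre/+) and *Rbpms*-CreERT2/CreERT2 (Cre/Cre). The knock-in allele carries P2A-CreERT2 in frame at the end of the *Rbpms* coding sequence, so that the endogenous *Rbpms* promoter drives the tamoxifen-dependent recombinase. The submitters' design text calls the Cre/+ and Cre/Cre mice heterozygous and homozygous knockouts, and the labels name no tamoxifen treatment for these retinas.

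RGCs are the output neurons of the retina and send their axons through the optic nerve to the brain. They fall into many subtypes that differ in dendritic shape, in response to light and in the genes they express, and RBPMS, an RNA-binding protein, is found in RGCs at large. A subtype gene is carried by some RGCs only, and several of these genes are also used by other cells, *Neurod2* by amacrine cells and *Jam2* by vascular endothelium. RNA of a whole retina does not say which cells a transcript came from, and fewer cells of a subtype and less RNA per cell cannot be told apart in it.

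The 9 libraries held 4.05 to 4.65 aligned gigabases, taken from the deposited coverage and FPKM. *Rbpms* itself was at 38.4 to 43.4 TPM (transcript abundance scaled to a fixed total) in +/+, at 31.3 to 33.1 TPM in Cre/+ and at 19.1 to 24.2 TPM in Cre/Cre. Its fall in Cre/Cre, with a log2 fold change of -0.96 ± 0.10 (SE) on the log2(TPM + 1) scale, passed the test (limma adjusted p = 0.000581), and the -0.36 ± 0.10 of Cre/+ did not (limma adjusted p = 0.355). In Cre/Cre replicate 1, the ribosomal precursor RNA Rn45s took 9.21% of all TPM, against at most 0.336% in the other libraries, which lowers the TPM of every other gene there. The summed TPM of 10 lens genes was highest, at 1165, in Cre/Cre replicate 2. Blood genes, 6 in the list, summed to 238 to 431 TPM in Cre/Cre, 164 to 252 TPM in +/+ and 130 to 154 TPM in Cre/+. *Xist*, the RNA that silences an X chromosome in female cells, was at 2.08 to 3.16 TPM in Cre/+ replicate 3 and Cre/Cre replicates 1 and 3, and at 516 to 585 TPM in the others. Y-linked genes summed to 258 to 318 TPM in the libraries low in *Xist*, as in males, and to at most 0.694 TPM in the others. No +/+ library was low in *Xist*, so sex and genotype were partly confounded. Marker genes of RGCs were present in every library. The 15 genes of a pan-RGC list summed to 2052 to 2135 TPM in +/+, 1966 to 2036 in Cre/+ and 1524 to 1865 in Cre/Cre. All 30 further RGC subtype genes and the marker lists of amacrine, bipolar, horizontal, photoreceptor and Mueller glia cells were detected as well.

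Start-site regions are given first for *Neurod2* and *Htr2c*, since both were lower in all 3 Cre/Cre libraries than in any +/+ library, as was *Cntnap4*. They come from RefSeq promoter windows of GRCm38.p6 (the assembly of mm10), 250 bases before to 50 bases after the start, read 5′ to 3′ on the gene's strand. Capitals mark CANNTG, the letters of the E-box to which NEUROD2 and other bHLH factors bind, and ATTAAT, which is found in sites of POU4F factors. Both motifs read the same on either strand.
Neurod2, chr11:98329596-98329895, minus strand: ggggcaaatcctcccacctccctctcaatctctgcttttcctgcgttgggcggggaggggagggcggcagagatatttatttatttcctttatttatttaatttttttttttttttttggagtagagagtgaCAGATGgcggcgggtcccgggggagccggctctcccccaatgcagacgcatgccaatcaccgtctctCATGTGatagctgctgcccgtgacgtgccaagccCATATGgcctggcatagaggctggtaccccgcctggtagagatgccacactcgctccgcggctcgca
Htr2c, chrX:146962263-146962562, plus strand: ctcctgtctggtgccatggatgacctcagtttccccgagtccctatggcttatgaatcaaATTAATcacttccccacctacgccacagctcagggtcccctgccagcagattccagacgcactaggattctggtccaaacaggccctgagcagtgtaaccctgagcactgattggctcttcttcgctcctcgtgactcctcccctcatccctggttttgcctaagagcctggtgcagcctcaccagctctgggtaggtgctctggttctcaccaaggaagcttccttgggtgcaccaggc
The *Neurod2* window held 3 CANNTG and no ATTAAT, and the *Htr2c* window held 1 ATTAAT and no CANNTG. Of all 32851 windows of this length, 72.3% held the E-box letters and 4.75% held ATTAAT. Of the 10 genes, 6 had a window in the table (11 windows in all). CANNTG was found in 10 of these windows, for *Foxp1*, *Fstl4*, *Neurod2*, *Pde1a* and *Prdm16*. ATTAAT was found in 3 of them, for *Foxp1*, *Htr2c* and *Pde1a*. Those of *Foxp1* and *Pde1a* belong to start sites other than the start of the deposited gene position. CAGCTG, 1 form of CANNTG, was found for *Pde1a* only, in 2 windows, and in 16.3% of all windows. A match describes the letters and is no evidence of binding.

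RBPMS is known to bind RNA at pairs of CAC, so pairs of CAC with 1 to 12 bases between them were counted in the longest coding transcript of each gene (GENCODE M21). *Neurod2*, *Htr2c* and *Cntnap4* were the genes lower in Cre/Cre than in +/+ without overlap. For each, the window of 30 coding bases with the most CAC is given, with CAC in capitals. No such window was sought in the other genes, so whether these hold unusually many CAC was not tested.
Neurod2: tctgtgcaaggggctgtCACagccCACCAC
Htr2c: ggCACtgcggtgcgctCACtccttgtgCAC
Cntnap4: ctgCACaaaCACggggtaCACaggagcCAC
The *Neurod2* transcript held 41 pairs, or 13.0 per kb, a density above 99.4% of the 13629 tested genes with such a transcript, whose median was 3.04 per kb. Of these 41 pairs, 34 lay in the 3′ UTR, which contains a CA repeat of 37 bases. Outside CA repeats of 12 bases or more, 22 pairs remained in *Neurod2*, or 7.09 per kb, above 96.1% of genes. *Pde1a* (1.88 per kb), *Htr2c* (1.64 per kb) and *Trhr* (0.831 per kb) lay below the median. The others lay above it, *Fstl4* at 6.16, *Prdm16* at 5.46, *Foxp1* at 5.29, *Jam2* at 4.58, *Cntnap4* at 4.12 and *Foxp2* at 3.70 pairs per kb. Outside CA repeats, *Foxp2* held 13 pairs, or 1.93 per kb, below the median of 2.93 per kb so counted. The other genes stayed on the same side of the median. No binding was measured, and these counts describe sequence only.

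The level of the 10 genes covered a wide range, and they were ordered by TPM, which is scaled to length. The place of *Pde1a* depends on the measure. Its ratio of coverage to FPKM was 37.2% to 38.5% of the library's commonest value. That of *Foxp2* was 35.3% to 37.1%, against 89.4% or more for the other genes. By coverage in +/+ replicate 1, *Pde1a* (3.19) lay below *Prdm16* (3.67), *Fstl4* (4.87), *Htr2c* (4.89) and *Cntnap4* (8.14), and above *Trhr* (2.80). This order changed between libraries. In Cre/Cre replicate 2, *Pde1a* (4.18) lay above *Prdm16* (2.79) and *Cntnap4* (3.88). In Cre/+ replicate 3, *Pde1a* (3.10) lay below *Trhr* (3.98). *Jam2* was the most abundant in every library, with a mean of 105 TPM over 9 libraries, higher than 87.0% of the 15198 genes tested. *Neurod2* came next in every library, with a mean of 18.0 TPM. *Foxp1* (8.25 TPM) and *Pde1a* (7.10 TPM) followed, with *Foxp1* the higher in 6 of 9 libraries. *Cntnap4* (4.27 TPM), *Fstl4* (4.06 TPM) and *Htr2c* (3.73 TPM) could not be ordered over the 9 libraries, since their ranges overlapped and ranks changed between genotypes. *Trhr* (2.48 TPM), *Prdm16* (2.11 TPM) and *Foxp2* (1.64 TPM) were the lowest, and *Foxp2* was higher than only 5.11% of the genes tested. *Trhr* and *Prdm16* overlapped, as did *Prdm16* and *Foxp2*. All 10 genes passed the filter of a mean of at least 1 TPM, which used no genotype.

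**Figure D1:**
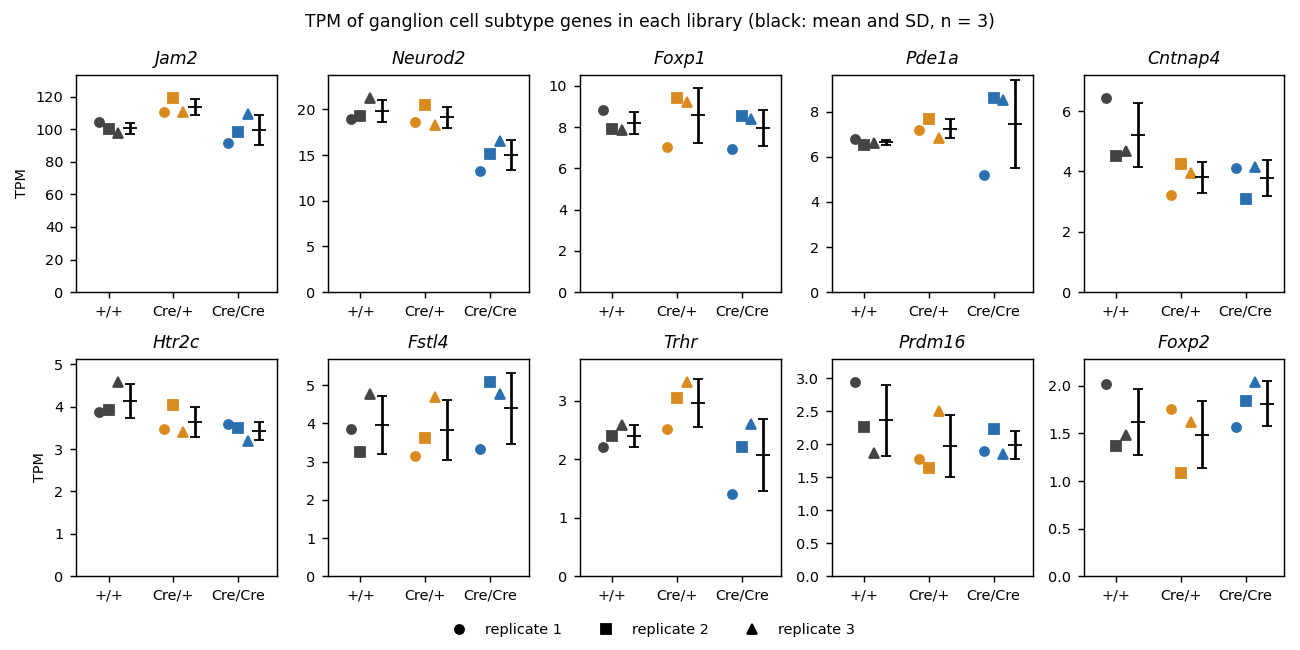
TPM (vertical axis, linear from 0) of each gene in the 9 libraries by genotype, with 1 point per library shaped by replicate number and the mean ± SD (n = 3) in black. The 3 Cre/Cre points of *Neurod2* (13.3 to 16.5 TPM) lie below all +/+ and Cre/+ points, while the points of *Foxp1*, *Fstl4*, *Foxp2* and *Prdm16* overlap between all genotypes.

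Transcription factors made up 4 of the 10 genes. *Neurod2*, a bHLH factor of differentiating and mature neurons (chr11:98325417-98329645, minus strand), showed the clearest difference. It was at 19.0, 19.3 and 21.3 TPM in +/+ replicates 1, 2 and 3, at 18.6, 20.4 and 18.3 TPM in Cre/+, and at 13.3, 15.2 and 16.5 TPM in Cre/Cre. The +/+ and Cre/+ libraries overlapped, and all Cre/Cre libraries lay below both. The mean in Cre/Cre was 14.98 ± 1.63 TPM (SD, n = 3), or 75.5% of the 19.8 ± 1.23 TPM of +/+. On the log2(TPM + 1) scale the difference from +/+ was -0.39 ± 0.11 (SE), with a 95% interval of -0.61 to -0.16. It did not pass the test over all genes (limma adjusted p = 0.542). The difference from Cre/+ was -0.34 ± 0.11 (limma adjusted p = 0.647). The trend with 0, 1 and 2 knock-in alleles was -0.19 ± 0.06 per allele (limma adjusted p = 0.657), and Cre/+ alone differed from +/+ by -0.05 ± 0.11. Without Cre/Cre replicate 1, the library rich in Rn45s and the lowest for *Neurod2*, the difference from +/+ was -0.31 (limma adjusted p = 0.434), and with *Xist* as a covariate it was -0.34 (limma adjusted p = 0.879). *Neurod1*, the most abundant of its relatives and known from photoreceptors and amacrine cells, was at 638 ± 13.2 TPM in +/+, 734 ± 15.5 TPM in Cre/+, and in Cre/Cre it was 682 ± 86.5 TPM (SD, n = 3). The mean TPM of *Neurod1* was thus 32.2 times that of *Neurod2* in +/+ and 45.5 times in Cre/Cre.

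*Foxp1* and *Foxp2* encode forkhead repressors and are used to tell RGC subtypes apart. *Foxp1* (chr6:98925342-99520993, minus strand) was at 8.85, 7.90 and 7.89 TPM in +/+, at 7.06, 9.42 and 9.25 TPM in Cre/+, and at 6.95, 8.56 and 8.40 TPM in Cre/Cre. Replicate 1 was the lowest in both knock-in genotypes and the highest in +/+, and the genotypes overlapped. The difference from +/+ was -0.04 (95% interval -0.34 to 0.26) in Cre/Cre, and its sign turned, to 0.04, without Cre/Cre replicate 1. *Foxp2* (chr6:14901349-15441977, plus strand) was at 2.02, 1.36 and 1.49 TPM in +/+, at 1.75, 1.09 and 1.62 TPM in Cre/+, and at 1.56, 1.84 and 2.04 TPM in Cre/Cre. Its libraries overlapped between all genotypes, and within a genotype the highest and lowest stood apart by more than the means of the genotypes did. The interval of its difference from +/+ in Cre/Cre ran from -0.33 to 0.54 on the log2(TPM + 1) scale, and from -0.51 to 0.84 with a pseudocount of 0.1. Both genes have many annotated transcripts, 31 for *Foxp1* and 20 for *Foxp2*. *Foxp4*, the relative with the highest level, was at 28.8 ± 0.245 TPM in +/+, 25.7 ± 2.25 TPM in Cre/+, and in Cre/Cre it was 23.5 ± 1.80 TPM (SD, n = 3). Its log2 difference in Cre/Cre was -0.28 ± 0.09 (limma adjusted p = 0.594).

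*Prdm16*, a zinc finger factor with a PR/SET domain (chr4:154316125-154636873, minus strand), was at 2.95, 2.27 and 1.88 TPM in +/+, at 1.78, 1.64 and 2.51 TPM in Cre/+, and at 1.89, 2.24 and 1.86 TPM in Cre/Cre. The genotypes overlapped, and the means of Cre/+ (1.97 ± 0.471 TPM) and Cre/Cre (2.00 ± 0.210 TPM) lay below the 2.36 ± 0.542 TPM of +/+ (SD, n = 3) by less than the spread in +/+. The log2 differences were -0.18 ± 0.20 in Cre/+ and -0.16 ± 0.20 in Cre/Cre (limma adjusted p = 0.754 and 0.936). Without +/+ replicate 1, the highest library, they were -0.055 and -0.036, and without Cre/+ replicate 3 the first was -0.30. *Mecom*, its closest relative, was below 1 TPM on average in every genotype.

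Receptors coupled to G proteins made up 2 of the genes. *Htr2c*, the serotonin receptor 2C (chrX:146962513-147197277, plus strand), was at 3.87, 3.93 and 4.58 TPM in +/+, at 3.48, 4.05 and 3.41 TPM in Cre/+, and at 3.59, 3.49 and 3.19 TPM in Cre/Cre. All Cre/Cre libraries were below all +/+ libraries, and those of Cre/+ overlapped with both. The mean in Cre/Cre was 82.9% of that in +/+, and the log2 difference of -0.21 ± 0.16 (95% interval -0.55 to 0.12) did not pass the test (limma adjusted p = 0.862). *Htr2c* is X-linked, and the 3 libraries low in *Xist* held 3.41, 3.59 and 3.19 TPM, among the 5 lowest. With *Xist* as a covariate the difference in Cre/Cre was -0.17 (limma adjusted p = 0.997). *Htr2a*, the relative with the highest level, was at 2.99 ± 0.776 TPM in +/+ and 2.65 ± 0.944 TPM in Cre/Cre (SD, n = 3).

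*Trhr*, the receptor of thyrotropin-releasing hormone and a marker of direction-selective RGCs (chr15:44196135-44235912, plus strand), was at 2.22, 2.40 and 2.59 TPM in +/+, at 2.51, 3.04 and 3.32 TPM in Cre/+, and at 1.40, 2.20 and 2.604 TPM in Cre/Cre. Cre/Cre replicate 1 was the lowest of the 9 libraries, while replicate 2 lay just below the range of +/+ and replicate 3 just above it. The log2 difference was 0.22 ± 0.20 in Cre/+ and -0.17 ± 0.20 in Cre/Cre (limma adjusted p = 0.687 and 0.930). Without Cre/Cre replicate 1 the latter was -0.000254, so its size rested on that library. Cre/Cre against Cre/+ gave -0.38 ± 0.20 (limma adjusted p = 0.740), and -0.22 without that library. *Trhr* rested on few reads, 40.6 to 105.4 reads of 150 bases per library. *Trhr2*, its only paralog in the list, was below 0.3 TPM on average in every genotype.

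Adhesion proteins made up 2 more. *Jam2*, an immunoglobulin superfamily protein of tight junctions and the marker of J-RGCs, which respond to upward motion (chr16:84774123-84826375, plus strand), was at 104, 99.9 and 97.7 TPM in +/+, at 110, 119 and 111 TPM in Cre/+, and at 91.5, 98.03 and 109 TPM in Cre/Cre. All Cre/+ libraries lay above all libraries of the other genotypes. The mean in Cre/+ was 112.7% of that in +/+, a log2 difference of 0.17 ± 0.08 (95% interval 0.00 to 0.34) that did not pass the test (limma adjusted p = 0.460). Cre/Cre differed from Cre/+ by -0.19 ± 0.08 (limma adjusted p = 0.740) and from +/+ by -0.02 ± 0.08. The last value was 0.01 after median-ratio scaling and 0.04 after removal of Rn45s, Lars2 and Rpph1, so no direction can be given for it. The 8 endothelial marker genes summed to 166 to 175 TPM in +/+, 149 to 174 TPM in Cre/+ and 138 to 159 TPM in Cre/Cre. *Jam3*, its relative with the highest level, was at 55.3 ± 3.87 TPM in +/+, 54.5 ± 6.48 TPM in Cre/+, and in Cre/Cre it was 52.3 ± 7.54 TPM (SD, n = 3).

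*Cntnap4*, a neurexin-like membrane protein of synapses (chr8:112570043-112882707, plus strand), was at 6.44, 4.52 and 4.68 TPM in +/+, at 3.24, 4.23 and 3.95 TPM in Cre/+, and at 4.11, 3.08 and 4.16 TPM in Cre/Cre. All libraries of both knock-in genotypes were below all +/+ libraries, and +/+ replicate 1 stood well above the rest. The mean was 73.0% of that in +/+ in Cre/+ and 72.5% in Cre/Cre. The log2 differences were -0.36 ± 0.18 in Cre/+ (limma adjusted p = 0.467) and -0.37 ± 0.18 in Cre/Cre (limma adjusted p = 0.715), and neither passed the test. Both values rest on the same 3 +/+ libraries. Without +/+ replicate 1 they were -0.23 in Cre/+ and -0.24 in Cre/Cre. The libraries held 125.6 to 263.2 reads of *Cntnap4*, and counting error, taken over pairs of reads, gives a coefficient of variation (CV) of 8.72% to 12.6%, against an observed 16.7% between libraries of a genotype. *Cntnap2*, its relative with the highest level, was at 72.8 ± 5.53 TPM in +/+, 76.6 ± 3.93 TPM in Cre/+, and in Cre/Cre it was 69.5 ± 7.57 TPM (SD, n = 3).

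A secreted protein and an enzyme completed the genes. *Fstl4*, a follistatin-like glycoprotein (chr11:52764706-53187347, plus strand), was at 3.85, 3.25 and 4.76 TPM in +/+, at 3.15, 3.63 and 4.68 TPM in Cre/+, and at 3.34, 5.08 and 4.77 TPM in Cre/Cre. The genotypes overlapped, with a high and a low library in each, and its CV of 20.3% was the largest of the 10 genes. The log2 differences of -0.04 ± 0.19 in Cre/+ and 0.12 ± 0.19 in Cre/Cre were smaller than their errors. In Cre/Cre the difference was 0.27 without Cre/Cre replicate 1 and 0.016 without +/+ replicate 2. *Fstl5*, the relative with the highest level, was at 48.7 ± 3.76 TPM in +/+ (SD, n = 3), 12.3 times the level of *Fstl4*.

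*Pde1a*, a phosphodiesterase activated by calcium and calmodulin (chr2:79834453-80129658, minus strand), was at 6.76, 6.51 and 6.62 TPM in +/+, at 7.19, 7.67 and 6.83 TPM in Cre/+, and at 5.19, 8.61 and 8.52 TPM in Cre/Cre. The +/+ libraries lay close together, all Cre/+ libraries lay just above them, and the Cre/Cre libraries held both the lowest and the highest values of all. The log2 difference was 0.11 ± 0.16 in Cre/+ and 0.12 ± 0.16 in Cre/Cre (limma adjusted p = 0.836 and 0.949). The latter depended on the library left out, at 0.33 without Cre/Cre replicate 1 (limma adjusted p = 0.479), 0.0090 without replicate 2 and 0.015 without replicate 3. *Pde1b*, the relative with the highest level, was at 91.9 ± 0.945 TPM in +/+, 85.6 ± 7.69 TPM in Cre/+, and in Cre/Cre it was 85.1 ± 7.28 TPM (SD, n = 3).

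**Figure D2:**
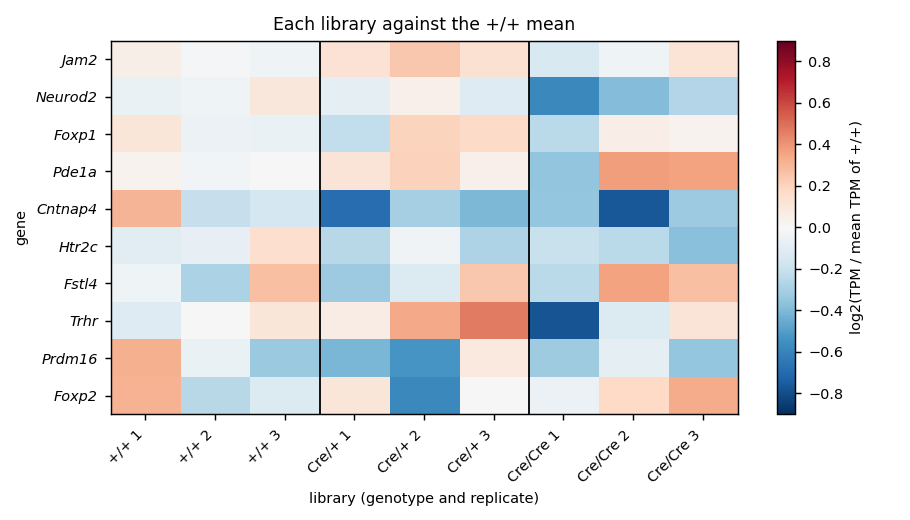
Colour gives the log2 ratio of each library's TPM to the mean TPM of the 3 +/+ libraries, for the 10 genes (rows) in the 9 libraries (columns). *Neurod2* is below the +/+ mean in all 3 Cre/Cre libraries, *Cntnap4* in all 6 knock-in libraries, and Cre/Cre replicate 1 is the lowest Cre/Cre library for 7 of the 10 genes.

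Counted over the 10 genes, none passed an adjusted p of 0.05 in Cre/+ against +/+ (0 of 10, limma), where 0.00658% of all genes tested did. At an unadjusted p under 0.05, 1 gene (*Jam2*) was higher and 0 were lower, where 4.9% and 5.82% of all genes were. The libraries of Cre/+ and +/+ did not overlap for 3 genes, where 22.2% of all genes did not. *Jam2* and *Pde1a* were the higher ones (11.9% of all genes) and *Cntnap4* the lower one (10.3% of all genes). The log2 difference was below 0 for 6 genes, where it was for 49.6% of all genes, and its median was -0.04, against 0.00 for all genes tested.

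In Cre/Cre against +/+, again 0 of 10 passed the adjusted p (limma), where 0.00658% of all genes did, a single gene. At an unadjusted p under 0.05, *Neurod2* and *Cntnap4* were lower and 0 genes were higher, where 5.39% of all genes were lower and 1.58% higher (6.97% together). *Cntnap4* lay at the limit (limma unadjusted p = 0.04995), while *Neurod2* was well under it (limma unadjusted p = 0.00217). *Neurod2*, *Htr2c* and *Cntnap4* were lower without overlap, where 8.05% of all genes were, and 0 were higher, where 2.7% were (10.8% together). The difference was below 0 for 7 of 10 genes, where 57.7% of all genes were, and its median was -0.10 against -0.02 for all genes. Cre/Cre replicate 1 was the lowest of the 3 Cre/Cre libraries for 7 of the 10 genes and for 64.8% of all genes tested. With TPM recomputed without Rn45s, Lars2 and Rpph1, the differences from +/+ were -0.34 for *Neurod2*, -0.17 for *Htr2c* and -0.33 for *Cntnap4*.

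In Cre/Cre against Cre/+, 0 of 10 passed the adjusted p (limma), where 0.0132% of all genes did. *Neurod2* and *Jam2* were lower at an unadjusted p under 0.05 and without overlap, where 4.2% and 7.23% of all genes were. None of the 10 was higher by either measure, where 2.38% and 4.76% of all genes were (6.58% and 12% in both directions). The difference was below 0 for 6 of 10 genes, where 59.2% of all genes were, and its median was -0.04, against -0.03 for all genes. Over the 3 genotypes at once, the F test of limma passed for 0 of the 10 genes, where 0.0132% of all genes passed, with *Neurod2* at the smallest adjusted p (0.465). The trend over knock-in alleles passed for 0 of 10, where 0.00658% of all genes passed. The F test gave an unadjusted p under 0.05 for *Neurod2* alone, where 8.63% of all genes had one, and so did the trend, where 6.24% did. The 3 pairwise comparisons share libraries, so their counts are not independent.

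**Figure D3:**
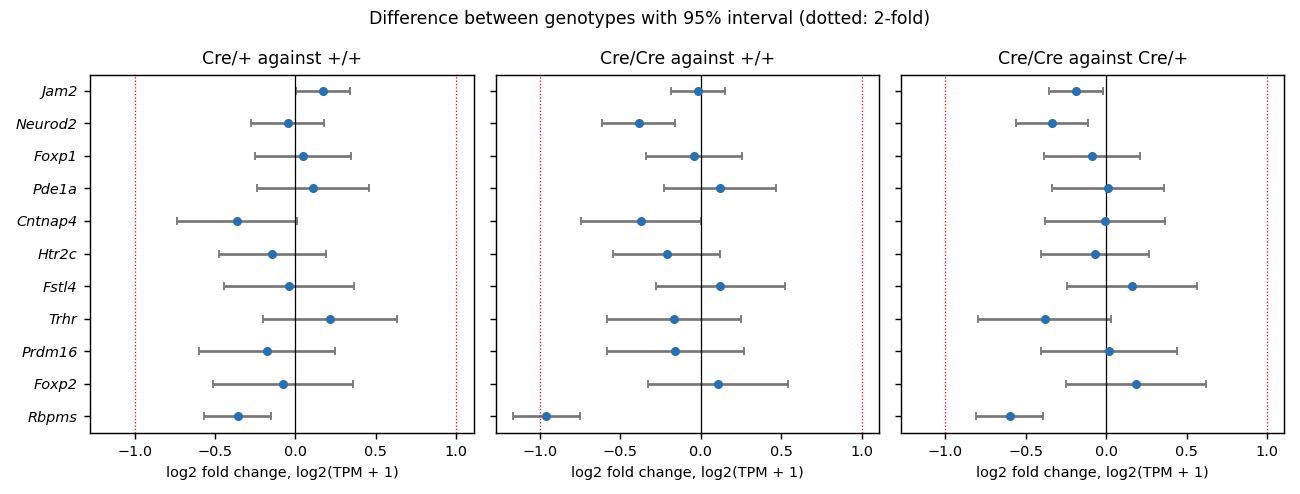
Log2 fold change on the log2(TPM + 1) scale (horizontal axis) with its 95% interval from limma for the 10 genes and *Rbpms*, in the 3 pairwise comparisons of genotypes. On this scale no interval of the 10 genes reaches the dotted lines of a 2-fold change, though that of *Trhr* in Cre/Cre against Cre/+ does with a pseudocount of 0.1. That of *Neurod2* lies below 0 in Cre/Cre against +/+, where that of *Cntnap4* ends at 0.

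The width of these intervals set what could be seen. On the log2(TPM + 1) scale, no 95% interval of the 10 genes reached a 2-fold change in a pairwise comparison, and the narrowest were those of *Jam2* and *Neurod2*, the most abundant genes. This did not hold with a pseudocount of 0.1, where the interval of *Trhr* in Cre/Cre against Cre/+ ran from -1.11 to 0.05. The mean CV between libraries of a genotype was 5.61% for *Jam2*, 7.68% for *Neurod2* and 8.45% for *Htr2c*, against a median of 8.63% for all genes tested. It was 11.1% for *Foxp1*, 11.3% for *Pde1a*, 16.7% for *Cntnap4*, 17.1% for *Trhr*, 19.1% for *Prdm16* and 19.5% for *Foxp2*. Reads could be recovered for 5 genes, for which coverage times a single length gave a whole number of aligned bases in all 9 libraries (within 0.0072 bases or less). Counting alone gave a median CV of 11.6% for *Htr2c*, above the CV observed between its libraries, and of 15.2% for *Trhr*, close to the observed one. For *Fstl4* (9.94%) and *Prdm16* (12.1%) the observed CV was larger than that of counting. Each library came from another mouse, so the p-values measure the spread between mice as well as that of the library preparation.

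The genes of the pan-RGC list were set beside the subtype genes. They are *Rbpms2*, *Thy1*, *Pou4f1*, *Pou4f2*, *Pou4f3*, *Isl1*, *Isl2*, *Sncg*, *Nefl*, *Nefm*, *Nefh*, *Slc17a6*, *Tubb3*, *Stmn2* and *Ebf3*. Not all of them are carried by every RGC, and the cells they came from were not measured. Of 15 such genes, 0 passed the adjusted p in Cre/Cre against +/+ (limma). At an unadjusted p under 0.05, 9 were lower and 0 higher, all 15 differences were below 0, and their median was -0.23. Over all genes tested, 5.39% were lower and 1.58% higher, 57.7% were below 0, and the median was -0.02. Differences below 0 were also found for 9 of 10 amacrine, 8 of 9 bipolar, 4 of 5 horizontal, 8 of 10 photoreceptor and 6 of 7 Mueller glia marker genes, with medians from -0.11 to -0.07. Of the genes tested, 4 of 4 smooth muscle and pericyte, 3 of 8 endothelial, 0 of 5 pigment epithelium, 1 of 9 lens and 2 of 6 blood genes were below 0. The medians of these lists were -0.09, 0.03, 0.16, 0.53 and 0.58. The pan-RGC genes with the smallest p were *Nefh* at -0.42 ± 0.08, *Sncg* at -0.43 ± 0.08, *Thy1* at -0.31 ± 0.08, *Pou4f2* at -0.45 ± 0.14 and *Nefl* at -0.23 ± 0.08 (limma adjusted p from 0.126 to 0.624). They include neurofilament subunits, a synuclein, a surface glycoprotein and a POU factor of RGCs. In Cre/+, 2 of the 15 were lower at an unadjusted p under 0.05, *Sncg* at -0.21 ± 0.08 and *Tubb3* at -0.19 ± 0.08, where 5.82% of all genes were lower. The geometric mean TPM of the 15 genes was 67.0 ± 1.40 in +/+, 65.0 ± 1.25 in Cre/+, and in Cre/Cre it was 56.5 ± 6.90 (SD, n = 3), where Cre/Cre replicate 1 was at 72.8% of the +/+ mean.

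Each subtype gene was then divided by this geometric mean in its own library. The geometric mean itself was at 84.4% of the +/+ mean in Cre/Cre, so a gene of equal TPM in both genotypes has a ratio above 100% by construction, and the median ratio of all genes tested was 117% in Cre/Cre and 103% in Cre/+. The ratio of *Neurod2* in Cre/Cre was 89.6% ± 6.35 of the +/+ mean (SD, n = 3), still below every +/+ library, as were 0.474% of all genes. Its margin was small, with the highest Cre/Cre library at 94.7% and the lowest +/+ library at 95.1%. The ratio of *Htr2c* was 99.4% ± 17.2, and that of *Cntnap4* 87.6% ± 22.4, and both overlapped with +/+. *Jam2* (118% ± 11.1), *Pde1a* (131% ± 20.9) and *Foxp1* (115% ± 2.24) were above every +/+ library in Cre/Cre by this measure, as were 40.2% of all genes. In Cre/+, *Cntnap4* was at 75.2% ± 9.86 and lower without overlap (5.4% of all genes). Its highest Cre/+ library, at 84.5%, lay just under the lowest +/+ library, at 85.0%. *Jam2* (116% ± 6.31) and *Pde1a* (112% ± 8.23) were higher without overlap in Cre/+ (18.7% of all genes). This ratio removes what a library shares over all its genes, such as the share of Rn45s, and no test was made of it.

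**Figure D4:**
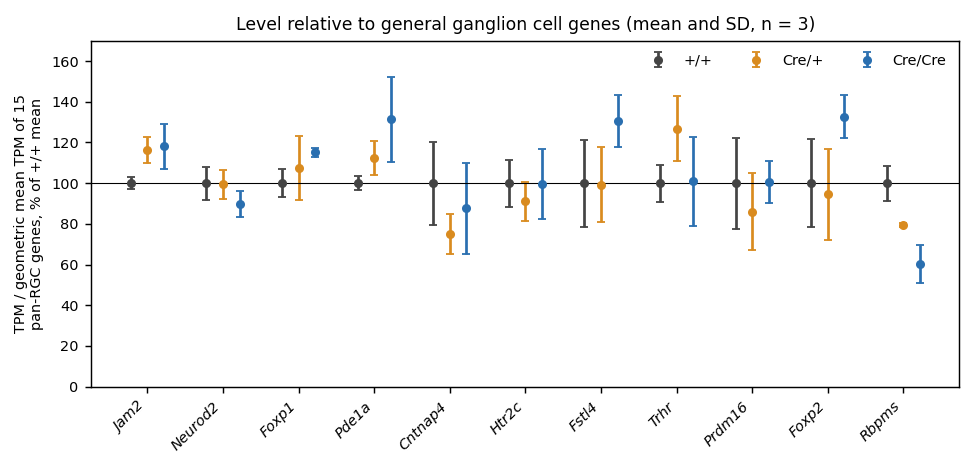
TPM of each gene divided by the geometric mean TPM of 15 pan-RGC genes in the same library, in percent of the +/+ mean (vertical axis, from 0), as mean ± SD (n = 3) by genotype. In Cre/Cre, *Rbpms* is at 60.2% and *Neurod2* at 89.6%, while *Pde1a*, *Foxp2* and *Fstl4* have means of 131% to 133%.

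Of 30 further RGC subtype genes, all were tested and 0 passed the adjusted p in any pairwise comparison (limma). In Cre/Cre against +/+, 5 were lower at an unadjusted p under 0.05 and 0 higher, with a median of -0.12, where 5.39% of all genes were lower and 1.58% higher and their median was -0.02. Among them were *Calb2* at -0.20 ± 0.07 (calretinin), *Kcng4* at -0.38 ± 0.14 (a potassium channel subunit used for alpha RGCs), *Opn4* at -0.54 ± 0.21 (melanopsin) and *Irx4* at -0.40 ± 0.16 (a homeobox factor). In Cre/+, 1 of the 30 was lower, *Opn4* at -0.53 ± 0.21, where 5.82% of all genes were lower. Of 24 relatives and partners of the 10 genes, 19 were tested. In Cre/Cre, 2 were lower at an unadjusted p under 0.05, where 5.39% of all genes were. These were *Foxp4* and *Cntnap1* (-0.27 ± 0.09, a protein of the axon beside nodes of Ranvier). The median of the 19 was -0.05, against -0.02 for all genes. In Cre/+, *Neurod1* was higher at 0.20 ± 0.08, where 4.9% of all genes were higher. None of the 19 passed the adjusted p (limma).

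For each gene, the gene with the most similar course over the 9 libraries was taken from 15197 others by Pearson's r of log2(TPM + 1), as a description. The closest was *Drd5*, a dopamine receptor gene, for *Neurod2* (r = 0.97), *Snx25* for *Jam2* (r = 0.98), *Copa* for *Trhr* (r = 0.97), *Tanc1* for *Foxp1* (r = 0.96) and *Rnf24* for *Pde1a* (r = 0.97). For *Htr2c* it was *Paqr4* (r = 0.96), for *Fstl4* *Smyd5* (r = 0.96), for *Cntnap4* *Gtf2e1* (r = 0.95), for *Foxp2* *P2ry12* (r = 0.94) and for *Prdm16* *Ppp4r1* (r = 0.93). Each is the highest of many values over 9 libraries that share depth and scaling. None of these genes belongs to the 10 subtype genes, the pan-RGC genes or the further subtype genes.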

How the data were processed

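RNA-Seq was measured in 9 whole-retina libraries, 3 per genotype, grouped by their labels. The authors used strand-specific poly(A) libraries with paired reads of 150 bases. The submitters' processing notes name Trimmomatic, FastQC, HISAT2, SAMtools, StringTie and DESeq2 with mm10, and the versions and annotation are not given in the sources used here. The deposited tables hold TPM, scaled by the authors to 1000000 per library, FPKM per length and depth, and coverage, the mean depth over a gene's bases. They hold no counts, so the authors' DESeq2 test was not repeated.

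Where a gene name had several rows, their TPM was summed. The 15198 genes with a mean of at least 1 TPM were tested with limma 3.58.1 in R 4.3.3 (trend and robust prior) on log2(TPM + 1), with genotype as the only term over all 9 libraries and 6 residual degrees of freedom. This scale understates the fold change of genes near 1 TPM. P-values were adjusted by Benjamini-Hochberg over all genes tested, with a limit of 0.05. The genes and lists were chosen with earlier results of these data known. Named genes were the 10 subtype genes, *Rbpms*, list genes at an unadjusted p under 0.05 against +/+ (at most 5 per list and comparison), the most abundant relative of each gene, and the gene most correlated with it. A list gene that met this rule is not reported here. Rn45s, *Xist* and the marker lists were named as checks of the libraries. Aligned bases per library came from the ratio of coverage to FPKM, and reads from coverage times length. Intervals and counting errors cover no PCR duplicates. The scripts were tested on simulated data.

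Alternatives were a pseudocount of 0.1, no filter, a mean of at least 5 TPM, FPKM, median-ratio scaling and TPM recomputed without Rn45s, Lars2 and Rpph1. Others were *Xist* as a covariate, limma without the robust prior, the genotypes compared alone, a replicate block, and each library left out in turn. Coverage in place of TPM was chosen after seeing the data. Positions are those of the deposited tables, motifs were searched in RefSeq windows of GRCm38.p6, and transcripts were those of GENCODE M21, which is not stated to be the authors' annotation. Figures were drawn with matplotlib 3.10.9.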

Additional observations from a re-analysis of the deposited data

How the results depend on the processing

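In no alternative did a gene it tested pass the adjusted p in any comparison (0 throughout). FPKM in place of TPM tested 7 of the 10 genes (not *Foxp2*, *Trhr* and *Prdm16*), coverage 9 (not *Foxp2*) and a mean of at least 5 TPM 4, since the others fell below the minimum. The number at an unadjusted p under 0.05 in Cre/+ was 1, became 0 with the replicate block and 2 with coverage in place of TPM, and ranged from 0 to 1 when 1 library was left out. It became 0 without +/+ replicate 1 or 3 or any of the 3 Cre/+ libraries. In Cre/Cre it was 2 and became 1 with a pseudocount of 0.1, a mean of at least 5 TPM, the replicate block, median-ratio scaling, TPM without Rn45s, Lars2 and Rpph1, no robust prior, or the genotypes compared alone, and ranged from 1 to 2 with 1 library left out, with 1 without +/+ replicate 1, Cre/+ replicate 2 or 3, or Cre/Cre replicate 2. In Cre/Cre against Cre/+ it was 2, became 1 with *Xist* as a covariate or the genotypes compared alone, and ranged from 1 to 3, with 1 without Cre/+ replicate 2 or Cre/Cre replicate 1 or 2. The median log2 difference with 1 library left out ranged from -0.11 to 0.02 in Cre/+, from -0.15 to 0.02 in Cre/Cre and from -0.10 to -0.02 between the knock-in genotypes. With a mean of at least 5 TPM, which keeps *Foxp1*, *Jam2*, *Pde1a* and *Neurod2*, it was 0.078 in Cre/+, -0.029 in Cre/Cre and -0.14 in Cre/Cre against Cre/+. The last was 0.0033 without Rn45s, Lars2 and Rpph1.

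Signs of single genes turned in 26 values, over 8 of the 30 differences, all of them small. In Cre/Cre against +/+, *Jam2* was 0.012 with median-ratio scaling and 0.037 without Rn45s, Lars2 and Rpph1, and -0.086 to 0.042 with 1 library left out, and *Foxp1* was 0.0063 without those RNAs. In Cre/Cre against Cre/+, *Pde1a* was -0.00274 with FPKM, *Cntnap4* 0.019 with median-ratio scaling and 0.034 without those RNAs, and *Prdm16* -0.014 with *Xist* as a covariate. With 1 library left out, Cre/+ against +/+ ranged from -0.018 to 0.17 for *Foxp1*, -0.16 to 0.044 for *Foxp2* and -0.17 to 0.074 for *Fstl4*, *Foxp1* in Cre/Cre against +/+ from -0.090 to 0.043, and Cre/Cre against Cre/+ from -0.099 to 0.22 for *Pde1a*, -0.062 to 0.14 for *Prdm16* and -0.098 to 0.10 for *Cntnap4*.

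Same-numbered libraries were not paired by the labels, and the correlations of their deviations from the genotype means ranged from -0.12 to 0.13, with 1 of 9 pairs over 0.1. Of the 9 libraries, 3 correlated best with their own number. With the replicate block *Neurod2* in Cre/Cre was -0.39. Alternatives that need counts (DESeq2, size factors, a count filter) were not run, since the tables hold no counts. Among the 5 genes whose reads could be recovered, *Trhr* had the fewest, with 40.6 in Cre/Cre replicate 1. Depth was not recovered for *Foxp2*, the gene of lowest TPM.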
